A study of Mus musculus with 10 samples.

Results

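The genes examined were the 48 enzymes of central carbon metabolism that stood in a fixed list of symbols, of 21853 rows in the expression tables. The list held 22 genes of glycolysis and its side branches, 7 of the pentose phosphate pathway and 19 of the TCA cycle and the reactions around it. The rule used symbols and no measured value, although the list was drawn up with earlier results of these data known. The 10 bulk RNA-seq libraries came from 5 mouse embryonic stem cell (ESC) lines, 2 from each. Naïve ESCs were wild-type J1 cells kept on gelatin in serum with LIF and the inhibitors PD0325901 (MEK) and CHIR99021 (GSK3). The GKO (GYS1 KO), AKO (AMPK KO) and DKO (AMPK, GYS1 KO) lines were J1 derivatives grown in the same naïve medium. GKO carried a Cas9-induced indel in Gys1, which encodes the glycogen synthase of most tissues other than liver. AKO was made with plasmids against Prkaa1, the α1 catalytic subunit of AMPK, and sorted for a red fluorescent reporter. Primed ESCs (PJ1, genotype WT) grew on Matrigel with serum replacement, bFgf and Activin, so state and medium cannot be told apart in that comparison. The clones or pools behind the libraries of a knockout are not given in the sources used here. The p-values rest on the spread between the 2 libraries of a line, which may be technical. For each gene this spread was pooled over the 5 lines, so a line outside a comparison also affects its p-value.

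Glycolysis splits glucose into pyruvate in the cytosol, the pentose phosphate pathway diverts glucose 6-phosphate to NADPH and ribose 5-phosphate, and the TCA cycle oxidises acetyl-CoA in mitochondria. Several steps are carried out by isozymes encoded by separate genes with different tissue ranges and regulation. Phosphofructokinase (PFK) is the committed step of glycolysis and is activated by fructose 2,6-bisphosphate, which the bifunctional PFKFB enzymes make and remove. Naïve mouse ESCs are known to use both glycolysis and respiration, and primed cells to rely more on glycolysis. The study's question concerned glycogen, a store of glucose, and AMPK, the cellular sensor of low energy, in pluripotent states.

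Expression was given as TPM, an abundance scaled to the library and corrected for transcript length, so that levels may be compared between genes. The listed genes of a library summed to between 500162 and 578952 TPM, the lowest sums being those of the primed libraries. Read depth cannot be read from TPM. Prkaa1 stood at 15.5 and 16.6 TPM in naïve ESCs, 7.24 and 6.94 in AKO and 2.3 and 2.04 in DKO, and at 12.0 to 13.7 TPM in the GKO and primed libraries. Prkaa2, the other catalytic subunit, stood at 2.38 and 2.41 TPM in naïve ESCs, 2.71 and 2.44 in AKO and 3.29 and 3.1 in DKO. It stood at 3.27 and 3.29 TPM in GKO and 8.3 and 9.38 in the primed line. By limma Prkaa2 was called higher than in naïve ESCs in DKO (0.30 ± 0.08, adjusted p = 0.014). It was also called higher in GKO (0.33 ± 0.08, adjusted p = 0.0078) and primed ESCs (1.53 ± 0.08, adjusted p = 1.7e-07). Prkaa1 was called lower in GKO (-0.38 ± 0.07, adjusted p = 0.0016) and primed ESCs (-0.23 ± 0.07, adjusted p = 0.012). AMPK loss is thus used here as the name of the genotype. Gys1 mRNA stood at 9.7 and 9.98 TPM in GKO, 12.1 and 11.7 in DKO and 11.5 and 10.8 in naïve ESCs, and a level of mRNA does not show whether an indel is present. The 6 naïve markers (Esrrb, Zfp42, Klf4, Nr0b1, Tfcp2l1 and Tbx3) summed to 968 to 1152 TPM in the libraries of the 4 naïve-medium lines and to 5.97 and 5.02 TPM in primed ESCs. The 5 fibroblast or feeder markers summed to 2.33 to 3.33 TPM in naïve ESCs, AKO and DKO, 9.10 and 15.3 in primed ESCs, and 7.97 and 9.22 in GKO. The 3 neural markers summed to 79.1 and 71.2 TPM in primed ESCs and to 3.82 to 7.18 elsewhere. The 2 primed libraries stood apart in the 4 mesendoderm markers (20.2 and 2.84 TPM) and the 4 primitive endoderm markers (5.25 and 0.71 TPM). Without either primed library fewer members were called against naïve ESCs than the 41 with both, and the share of all genes called was not counted. At most 1 of these 5 fibroblast markers passed 1 TPM in any line of naïve medium, and 3 did in primed ESCs. The part of these cells in the results was not tested, and in bulk RNA fewer cells of a type and less RNA per cell cannot be told apart.

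Summed glycolytic mRNA was lowest in GKO, a sum carried mainly by Gapdh and Pkm (means of 4140 and 1523 TPM in naïve ESCs). The 21 tested glycolysis genes had a median log2 difference of 0.04 in GKO against naïve ESCs. The 22 glycolysis genes summed to 8643 and 8411 TPM in naïve ESCs, 9053 and 8780 in AKO, 7690 and 8376 in DKO, 6305 and 6429 in GKO, and 8214 and 8383 in the primed line. Both GKO libraries lay below all the others, at 0.747 times the naïve mean, or 0.814 times when TPM were rescaled to the listed genes. The 7 pentose phosphate genes summed to 617 and 608 TPM in naïve ESCs and to 744 and 695 in primed ESCs, 1.17 times the naïve mean, while the other lines lay between 581 and 627. Tkt alone went from a mean of 166 TPM in naïve ESCs to 274 in primed ESCs. By limma 2 of the 7 genes were called higher in primed ESCs (Tkt and Pgls) and 4 lower, where 37.4% of all tested genes were called higher and 42.5% lower. The 19 TCA cycle genes summed to 1402 and 1389 TPM in naïve ESCs, 1384 and 1377 in AKO, 1222 and 1246 in DKO, 1187 and 1176 in GKO, and 1250 and 1265 in the primed line, so that the naïve and AKO libraries lay above the rest. With 2 libraries against 2 the smallest two-sided exact permutation p is 0.33, so these sums are given as values without a test, and the primed ratios for glycolysis and the TCA cycle moved from below to above 1 with the scale.

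**Figure D1:**
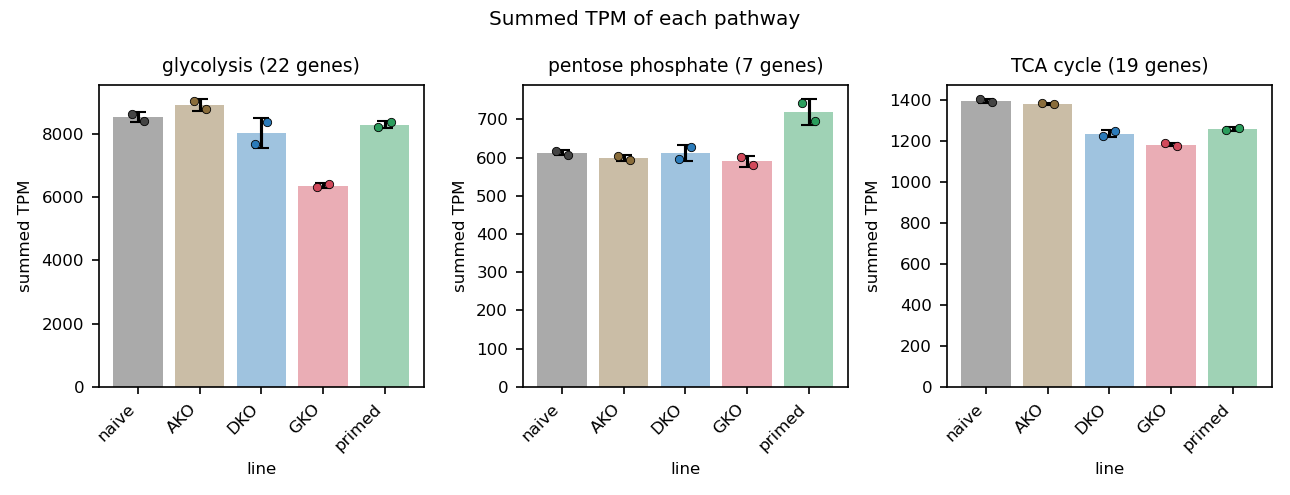
Summed TPM of the 22 glycolysis, 7 pentose phosphate and 19 TCA cycle genes in each line. Bars are the mean of 2 libraries, whiskers the SD and points the libraries. The GKO bar is the lowest for glycolysis, at 6305 and 6429 TPM.

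Genes were tested with limma on log2(TPM + 1), and a gene was called at an adjusted p under 0.05. Of the 48 members 47 passed the filter of at least 1 TPM in at least 2 libraries. Fbp1, a fructose-1,6-bisphosphatase, stayed at 0.370 TPM or less in every library and was not tested. Its relative Fbp2 passed the filter through its 2 DKO libraries alone, so its tests are not read. In primed against naïve ESCs 41 members were called, 21 higher and 20 lower, where 80% of all tested genes were called (37.4% higher and 42.5% lower). In GKO against naïve ESCs 32 were called, 12 higher and 20 lower, against 51.7% of all genes (24.7% higher and 27.1% lower). In DKO 28 were called, 11 higher and 17 lower, against 46% (21.7% and 24.3%). Without Fbp2 the counts of 46 members were 40, 31 and 27. With a log2 difference of at least 0.5 in addition, 28 members were called in primed ESCs, 15 in GKO and 9 in DKO, Fbp2 among the last, where 53.5%, 19.9% and 16.1% of all genes were. Primed libraries thus showed about the share of called members that any genes did, and 68.1% and 59.6% of the tested members were called in GKO and DKO. Among genes with a mean of at least 5 TPM the background was 54.8% in GKO and 50% in DKO. The median log2 difference of the tested members was 0.11 in primed ESCs, -0.06 in GKO and -0.02 in DKO, beside -0.05, -0.01 and -0.01 for all tested genes. Members thus moved in both directions in each of these lines. The comparisons with naïve ESCs share the same 2 naïve libraries.

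AKO differed little from naïve ESCs. By limma 0 of the 47 members were called, and 6 had an unadjusted p under 0.05, where 0.224% of all genes were called (0.0663% higher and 0.158% lower) and 1231 of 12060 had an unadjusted p under 0.05. The member with the largest difference was Pck2, at 10.4 and 9.67 TPM in naïve ESCs and 15.2 and 13.7 in AKO. Pcx followed in the other direction, at 30.5 and 32.7 TPM in naïve ESCs and 24.5 and 23 in AKO. Neither pair of libraries overlapped, and neither gene passed the adjusted threshold (adjusted p = 0.38 and 0.16). Such non-overlap was common, with 13 members above naïve ESCs, 15 below and 20 overlapping. The spread used for Pck2 was pooled over all lines, and its primed libraries stood apart (16.9 and 27.6 TPM). Its test thus depends in part on the primed libraries. With only the AKO and naïve libraries in the fit, 0 of the 12060 genes were called.

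**Figure D2:**
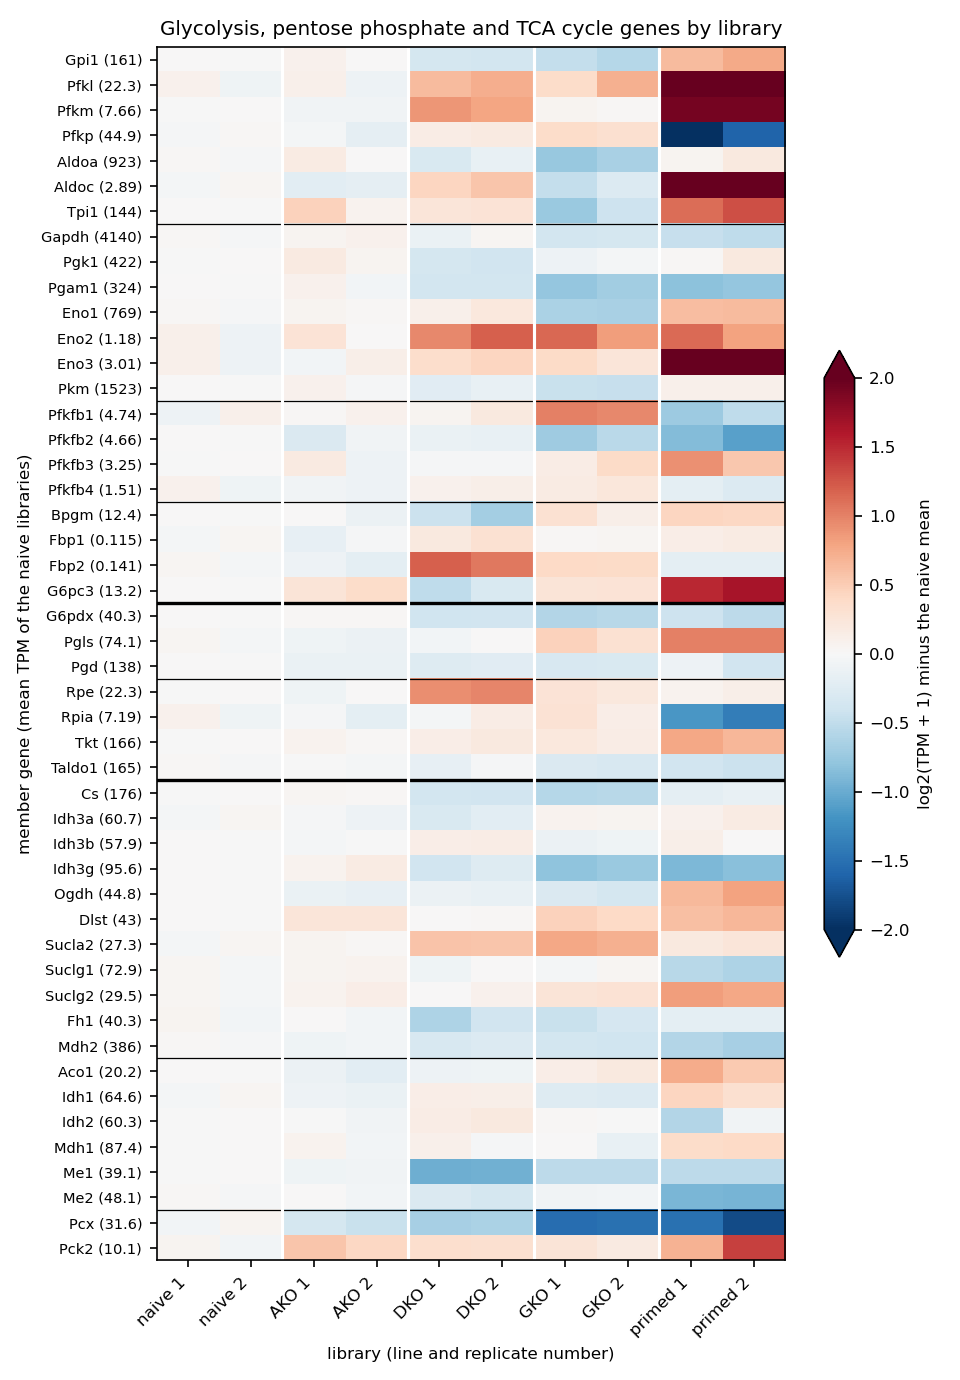
Each of the 48 genes (rows, with the mean naïve TPM in brackets) in each of the 10 libraries (columns), as log2(TPM + 1) minus the mean of the naïve libraries. Thin lines part the roles and thick lines the 3 pathways, and colours saturate at 2. The primed columns hold the strongest colours, with Pfkl, Pfkm, Aldoc and Eno3 high and Pfkp and Pcx low, and the AKO columns are the palest of the other lines.

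The upstream sequences of 5 members that moved in primed ESCs or GKO are shown to let their starts be compared. They were taken from the RefSeq promoter table of GRCm38.p6, which matched 46 of the 48 members (not Idh3a and Me2) with 70 windows. Of 32 members called with a log2 difference of at least 0.5 in either comparison, these 5 had a window of 250 bases before an annotated start that shared no run of 30 bases with a GENCODE vM39 transcript. For Pfkfb1, which had 2 such windows, the one that holds GC boxes is given. Capitals mark matches on either strand to 4 motifs. The first is ACGTG, the core of the hypoxia response element. An E-box is read as CACGTG, and each E-box holds the first motif on both strands. The GC box is read as GGGCGG. The TATA box is read as TATAAA. Which start was used in these cells was not measured.
Pfkm, chr15:98092339-98092588, plus strand: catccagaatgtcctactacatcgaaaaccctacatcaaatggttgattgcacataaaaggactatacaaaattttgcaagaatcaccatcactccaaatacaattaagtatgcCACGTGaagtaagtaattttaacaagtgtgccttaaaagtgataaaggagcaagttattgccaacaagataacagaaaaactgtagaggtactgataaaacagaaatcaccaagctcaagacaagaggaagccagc
Pgam1, chr19:41911621-41911870, plus strand: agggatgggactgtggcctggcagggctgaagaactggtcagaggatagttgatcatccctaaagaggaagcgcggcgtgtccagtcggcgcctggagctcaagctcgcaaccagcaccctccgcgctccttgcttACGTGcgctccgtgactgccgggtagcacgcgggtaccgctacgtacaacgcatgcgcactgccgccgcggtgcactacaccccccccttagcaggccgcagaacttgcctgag
Pfkfb1, chrX:150587993-150588242, plus strand: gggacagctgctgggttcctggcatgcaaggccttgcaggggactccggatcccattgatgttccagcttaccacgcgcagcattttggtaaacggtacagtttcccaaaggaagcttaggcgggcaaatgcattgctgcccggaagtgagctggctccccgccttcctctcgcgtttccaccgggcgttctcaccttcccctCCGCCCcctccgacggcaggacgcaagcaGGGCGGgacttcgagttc
Me1, chr9:86687278-86687527, minus strand: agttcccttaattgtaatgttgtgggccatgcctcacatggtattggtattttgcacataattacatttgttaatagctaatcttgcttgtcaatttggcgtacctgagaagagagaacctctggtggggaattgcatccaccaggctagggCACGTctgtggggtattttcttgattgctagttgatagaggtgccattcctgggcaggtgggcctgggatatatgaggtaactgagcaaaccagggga
Pcx, chr19:4594069-4594318, plus strand: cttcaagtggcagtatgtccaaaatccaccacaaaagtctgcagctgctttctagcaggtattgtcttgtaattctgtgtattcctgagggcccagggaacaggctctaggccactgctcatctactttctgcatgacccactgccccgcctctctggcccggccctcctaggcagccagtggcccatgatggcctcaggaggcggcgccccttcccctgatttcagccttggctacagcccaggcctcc
The Pgam1 window holds ACGTG 114 bases before the start, the Me1 window holds it on the other strand 98 bases before, and the Pfkm window holds an E-box 136 bases before. The Pfkfb1 window has GC boxes 47 and 18 bases before its start, and none of the 4 motifs lies in this window of Pcx. In windows not shown, Pcx has matches to the first motif, the E-box and the GC box. Pfkfb1 has a match to the last motif in a window not shown, and Me1 has one to the GC box. The shares that follow count a match in any window of a member. Over all members in the table, ACGTG was found for 14 of 46 (30.4%), beside 18.5% of all 27025 genes, and these were 9 of 22 glycolysis genes, 0 of 7 pentose phosphate genes and 5 of 17 TCA cycle genes. CACGTG was found for 15.2% of members and 6.86% of genes, GGGCGG for 76.1% and 35.4%, and TATAAA for 4.35% (Eno2 and Pfkfb1) and 14.3%. These are counts of letters and show no binding.

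The most extensive exchange lay at PFK. Primed ESCs had high mRNA for the liver-type (Pfkl) and muscle-type (Pfkm) subunits and low mRNA for the platelet-type subunit (Pfkp), which was the main form in naïve ESCs. Pfkp stood at 44.2 and 45.7 TPM in naïve ESCs, 43.8 and 39.7 in AKO, 49.9 and 51.1 in DKO, 58.4 and 56.2 in GKO and 9.05 and 14.1 in the primed line. Pfkl stood at 23.6 and 21, 23.9 and 20.6, 34.9 and 37.4, 28.8 and 37 and 97.9 and 109 TPM in the same order. Pfkm stood at 7.66 and 7.67, 7.27 and 7.25, 15 and 13.9, 7.98 and 7.84 and 31.8 and 31.6 TPM. No primed library overlapped a naïve one for any of the 3. The same held for every member in this comparison, with 28 above naïve ESCs, 20 below and 0 overlapping. In primed against naïve ESCs the log2 difference was 2.17 ± 0.12, adjusted p = 2.4e-07 for Pfkl, 1.92 ± 0.06, adjusted p = 4.1e-09 for Pfkm and -1.90 ± 0.15, adjusted p = 2.7e-06 for Pfkp. As a share of PFK mRNA, Pfkp fell from 58.6% and 61.5% in naïve ESCs to 6.53% and 9.13% in primed ESCs. Pfkl made up 31.3% and 28.2% in naïve ESCs and 70.6% and 70.5% in primed ESCs, and Pfkm 10.1% and 10.3% against 22.9% and 20.4%. Summed PFK mRNA was 75.4 and 74.3 TPM in naïve ESCs and 139 and 155 in primed ESCs.

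Both Gys1-deficient lines had more Pfkl than naïve ESCs, and DKO had more Pfkm as well. Pfkl was called in GKO (0.53 ± 0.12, adjusted p = 0.0054) and in DKO (0.67 ± 0.12, adjusted p = 0.0019), although the GKO libraries differed from each other by 0.351 on the log2 scale, the widest spread of any member in that line. Pfkm was called in DKO (0.84 ± 0.06, adjusted p = 1.3e-05) and not in GKO. GKO was lower than DKO in Pfkm by the test of that difference (-0.80 ± 0.06, adjusted p = 1.8e-05). Total PFK mRNA was 99.7 and 102 TPM in DKO and 95.1 and 101 in GKO, above naïve ESCs in both. Pfkp made up 61.3% and 55.6% of PFK mRNA in GKO.

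**Figure D3:**
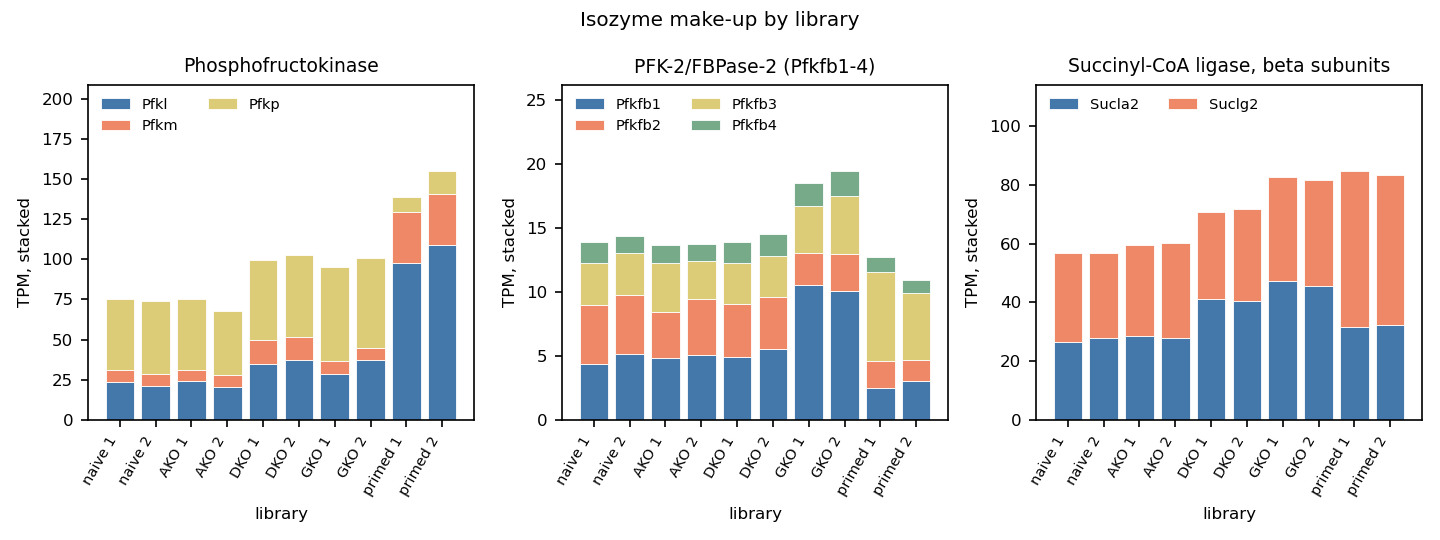
TPM of the isozymes of PFK (left), of the 4 PFKFB enzymes (middle) and of the beta subunits of succinyl-CoA ligase (right), stacked for each library. Pfkp makes up most of the PFK bar in naïve ESCs and 6.53% and 9.13% of it in primed ESCs. Pfkfb1 is the largest part in AKO, DKO and GKO, and Sucla2 is the larger part in DKO and GKO.

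The PFKFB genes were expressed at 1.08 to 10.6 TPM. The leading member was Pfkfb1 in AKO, DKO and GKO and Pfkfb3 in primed ESCs, while Pfkfb1 and Pfkfb2 were close in naïve ESCs. Pfkfb1, the liver form, stood at 4.35 and 5.13 TPM in naïve ESCs, 4.92 and 5.54 in DKO, 10.6 and 10.1 in GKO and 2.47 and 3.01 in the primed line. Pfkfb2, the heart form, stood at 4.67 and 4.65 TPM in naïve ESCs, 2.1 and 1.67 in primed ESCs and 2.46 and 2.89 in GKO. Pfkfb3, whose product has a high kinase activity, stood at 3.25 and 3.26 TPM in naïve ESCs and 6.97 and 5.21 in primed ESCs. Both GKO libraries lay above all others for Pfkfb1, at 2.18 times the naïve mean. The GKO difference was 0.98 ± 0.10, adjusted p = 7.5e-05 for Pfkfb1 and -0.62 ± 0.11, adjusted p = 0.0013 for Pfkfb2, and in primed ESCs it was -0.62 ± 0.10, adjusted p = 3.4e-04 for Pfkfb1, -0.98 ± 0.11, adjusted p = 2.4e-05 for Pfkfb2 and 0.73 ± 0.14, adjusted p = 9.9e-04 for Pfkfb3. Pfkfb1 made up 57.1% and 51.9% of PFKFB mRNA in GKO and 31.3% and 35.6% in naïve ESCs. Pfkfb3 made up 54.7% and 47.5% in primed ESCs and 23.3% and 22.6% in naïve ESCs. No PFKFB gene was called in DKO. Pfkfb4 did not exceed 1.93 TPM and was called in primed ESCs alone, at 1.65 and 1.37 TPM in naïve and 1.19 and 1.08 in primed libraries.

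Of the other upper steps, Gpi1, Tpi1 and Aldoa fell in GKO, and Gpi1, Tpi1 and Aldoc rose in primed ESCs. Gpi1 (glucose-6-phosphate isomerase) stood at 161 and 159.8 TPM in naïve ESCs, 126 and 124 in DKO, 115 and 108 in GKO and 249.9 and 271 in the primed line. Tpi1 (triosephosphate isomerase) stood at 144 and 143 TPM in naïve ESCs, 198 and 151 in AKO, 170.1 and 173 in DKO, 85.6 and 108 in GKO and 314 and 352 in the primed line. Aldoa, the main aldolase, stood at 941 and 906 TPM in naïve ESCs, 746 and 835 in DKO, 548 and 587 in GKO and 963 and 1054 in the primed line. Both GKO libraries were the lowest of the 10 for each of these 3 genes. The GKO difference was -0.53 ± 0.05, adjusted p = 8.1e-05 for Gpi1, -0.57 ± 0.13, adjusted p = 0.0066 for Tpi1 and -0.70 ± 0.08, adjusted p = 1.4e-04 for Aldoa. In primed ESCs Gpi1 rose (0.69 ± 0.05, adjusted p = 2.4e-06) and so did Tpi1 (1.21 ± 0.13, adjusted p = 2.7e-05), and Aldoa was not called. Without the first GKO library the Tpi1 difference was -0.41 and missed the threshold (adjusted p = 0.055). Aldoc, the brain-type aldolase, was a minor form with 2.8 and 2.98 TPM in naïve ESCs, 4.22 and 4.73 in DKO, 1.8 and 2.23 in GKO and 17.4 and 22.8 in the primed line. Its primed difference was 2.43 ± 0.13, adjusted p = 1.5e-07, and it made up 1.78% and 2.12% of aldolase mRNA there. In DKO against naïve ESCs Gpi1 and Aldoa were lower (-0.36 ± 0.05, adjusted p = 7.5e-04, and -0.23 ± 0.08, adjusted p = 0.047) and Aldoc was higher (0.49 ± 0.13, adjusted p = 0.011). In DKO the call was lost in 8 of 13 alternatives for Aldoa, and for Aldoc without the first naïve library (0.46, adjusted p = 0.066) or the second DKO library (0.42, adjusted p = 0.075).

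The lower steps from triose phosphates to pyruvate held the most abundant mRNAs of the list. Gapdh stood at 4208 and 4072 TPM in naïve ESCs, 3792 and 4262 in DKO, 3205 and 3260.3 in GKO and 2998 and 2925 in the primed line. Pkm (pyruvate kinase, both splice forms together) stood at 1538 and 1507, 1303 and 1368, 1117 and 1108 and 1639 and 1630.3 TPM in that order. Pgam1 (phosphoglycerate mutase) stood at 325 and 324, 249.99 and 252, 189 and 201 and 182 and 189.8 TPM. Gapdh and Pgam1 were thus lower in both GKO and primed ESCs, and Pkm in GKO but not in primed ESCs. The Pgam1 difference was -0.73 ± 0.06, adjusted p = 1.7e-05 in GKO and -0.80 ± 0.06, adjusted p = 1.1e-06 in primed ESCs. The smaller GKO differences of Gapdh (-0.36 ± 0.07, adjusted p = 0.0036) and Pkm (-0.45 ± 0.06, adjusted p = 2.6e-04) were called too, and that of Gapdh was -0.09 and not called under quantile normalization. In primed ESCs the Gapdh difference was -0.48 ± 0.07, adjusted p = 2.4e-04, and -0.15 (adjusted p = 0.16) after chromosome centring. Pgk1 (phosphoglycerate kinase) was called in DKO alone of the 4 lines, at 421 and 423 TPM in naïve ESCs, 331 and 324 in DKO, 394 and 409 in GKO and 428 and 486 in the primed line. Pgk1, G6pdx, Idh3g and Pfkfb1 lie on the X chromosome, whose 430 tested genes had a median difference of -0.26 in DKO. After centring each chromosome the DKO differences of Pgk1, G6pdx and Idh3g were -0.07, -0.09 and -0.03 and none was called, and that of Pgam1 (chromosome 19) was -0.04 and not called.

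Of the enolase genes, Eno1 fell in GKO and rose in primed ESCs. Eno1, the main form, stood at 782 and 755 TPM in naïve ESCs, 798 and 783 in AKO, 827 and 888 in DKO, 497 and 489 in GKO and 1184 and 1193 in the primed line. Its difference was -0.64 ± 0.05, adjusted p = 2.3e-05 in GKO and 0.63 ± 0.05, adjusted p = 3.4e-06 in primed ESCs, and GKO was also below DKO (-0.80 ± 0.05, adjusted p = 1.2e-05). Eno1b, a near-identical copy, was listed at 211 and 184 TPM in naïve ESCs, 319 and 329 in primed ESCs and 120.3 and 135 in GKO, and how reads were divided between the copies is uncertain. The minor neuronal form Eno2 stood at 1.34 and 1.01 TPM in naïve ESCs and higher in DKO (3.24 and 3.97), GKO (3.8 and 2.87) and primed ESCs (3.74 and 2.8). The Eno2 difference was 1.08 ± 0.16, adjusted p = 7.0e-04 in DKO, 0.99 ± 0.16, adjusted p = 9.3e-04 in GKO and 0.97 ± 0.16, adjusted p = 3.9e-04 in primed ESCs. The muscle form Eno3 rose from 3.29 and 2.72 TPM in naïve ESCs to 29 and 29.8 in primed ESCs, 9.78 times higher and the largest difference of any member (2.93 ± 0.10, adjusted p = 8.7e-09). Eno3 was also called higher in DKO (4.08 and 4.39 TPM) and GKO (4.19 and 3.71 TPM). Eno1 made up 97.3% of enolase mRNA in both primed libraries. Other near-identical copies of glycolytic genes in the mouse genome make the absolute levels of Gapdh, Pgk1, Pkm and Aldoa uncertain in the same way.

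**Figure D4:**
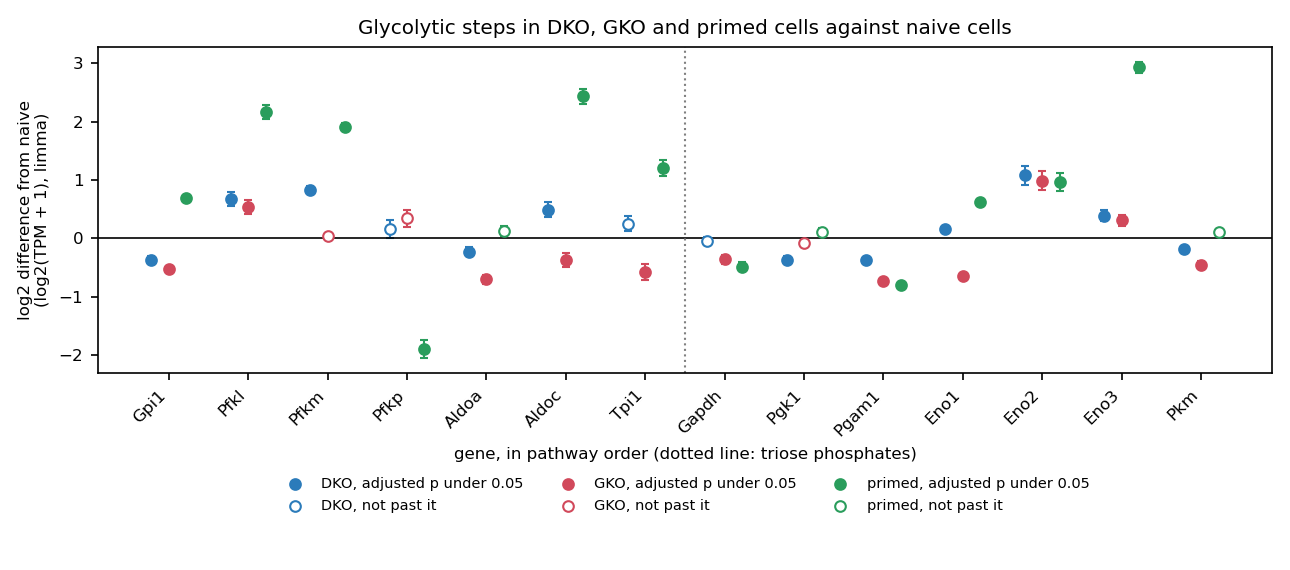
Log2 difference from naïve ESCs (points, with SE) of the 14 genes of the main glycolytic steps, in pathway order, in DKO, GKO and primed ESCs. Filled points passed an adjusted p of 0.05. GKO points lie below 0 for Gpi1, Aldoa, Aldoc, Tpi1, Gapdh, Pgam1, Eno1 and Pkm, whereas Gpi1, Aldoc, Tpi1 and Eno1 lie above 0 in primed ESCs.

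Of the side branch and phosphatase genes, G6pc3 rose in primed ESCs, and G6pc3 and Bpgm fell in DKO. G6pc3, the broadly expressed glucose-6-phosphatase, stood at 13.3 and 13.1 TPM in naïve ESCs, 16 and 17.2 in AKO, 8.98 and 10.5 in DKO, 16 and 16.1 in GKO and 39.3 and 43.2 in the primed line. Its difference was 1.57 ± 0.08, adjusted p = 1.1e-07 in primed ESCs and -0.41 ± 0.08, adjusted p = 0.0028 in DKO. Bpgm, which makes 2,3-bisphosphoglycerate, stood at 12.4 and 12.3 TPM in naïve ESCs, 8.97 and 7.36 in DKO, 15.5 and 13.5 in GKO and 16.9 and 16.8 in the primed line, with a DKO difference of -0.55 ± 0.09, adjusted p = 0.0016. Fbp2, the muscle fructose-1,6-bisphosphatase, was near the bottom of the scale, at 0.17 and 0.113 TPM in naïve ESCs, 1.6 and 1.38 in DKO and 0.501 and 0.487 in GKO, and was listed at 0 in both primed libraries. DKO libraries were the lowest for Bpgm, without overlap with any other line.

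In the pentose phosphate pathway the oxidative genes did not move together. G6pdx (glucose-6-phosphate dehydrogenase, its entry step) stood at 40.5 and 40 TPM in naïve ESCs, 30.3 and 30.7 in DKO, 26.6 and 27.2 in GKO and 30 and 27.6 in the primed line. Pgls (6-phosphogluconolactonase) stood at 76.3 and 71.8, 71.3 and 74.5, 102 and 91.7 and 149 and 149 TPM in that order. G6pdx fell in GKO (-0.56 ± 0.05, adjusted p = 3.4e-05), and the smaller primed difference was called as well (-0.47 ± 0.05, adjusted p = 1.8e-05). Pgls rose in primed ESCs (1.00 ± 0.06, adjusted p = 2.9e-07) and GKO (0.38 ± 0.06, adjusted p = 6.2e-04). Pgd (6-phosphogluconate dehydrogenase) was called lower in DKO, GKO and primed ESCs, with differences between -0.32 and -0.24. The GKO call was kept in all 13 alternatives. That in DKO was lost in 7 of 13, and that in primed ESCs was lost in 4 and reversed in 1.

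The non-oxidative genes were separated by line. Tkt (transketolase) stood at 165 and 168 TPM in naïve ESCs and 284 and 264 in primed ESCs, and Rpia (ribose-5-phosphate isomerase) at 7.7 and 6.68 TPM in naïve and 2.63 and 2.14 in primed libraries. The primed difference was 0.72 ± 0.05, adjusted p = 1.0e-06 for Tkt and -1.27 ± 0.11, adjusted p = 5.5e-06 for Rpia. Tkt lies on chromosome 14, whose 394 tested genes had a median difference of 0.54 in primed ESCs and 0.47 in GKO, and after centring each chromosome the primed difference was 0.07 (adjusted p = 0.23). Rpe (ribulose-5-phosphate epimerase) stood out in DKO, at 43.4 and 44.8 TPM against 22.1 and 22.5 in naïve ESCs, 20.9 and 22.4 in AKO, 27.3 and 25.9 in GKO and 23.6 and 24.3 in the primed line. Its DKO difference was 0.95 ± 0.05, adjusted p = 4.6e-06. Taldo1 (transaldolase) was called lower in GKO and primed ESCs, at 167 and 162 TPM in naïve ESCs, 126 and 122 in primed ESCs and 134 and 132 in GKO.

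Among the 11 mitochondrial TCA cycle genes, entry into the cycle and the last step were lower in GKO. Cs (citrate synthase) stood at 176 and 176 TPM in naïve ESCs, 137 and 135 in DKO, 119 and 120.2 in GKO and 154 and 159 in the primed line. Mdh2 (mitochondrial malate dehydrogenase) stood at 391 and 381, 309 and 320.3, 298 and 291 and 258 and 242 TPM in that order. The Cs difference was -0.56 ± 0.04, adjusted p = 1.1e-05 in GKO and -0.37 ± 0.04, adjusted p = 1.0e-04 in DKO. Mdh2 was lowest in primed ESCs (-0.63 ± 0.05, adjusted p = 1.9e-06) and also called in GKO (-0.39 ± 0.05, adjusted p = 2.0e-04). Fh1 (fumarase) stood at 42 and 38.5 TPM in naïve ESCs, 26 and 30.6 in DKO and 29.1 and 31.7 in GKO and was called lower in both and, with a call lost in 8 of 13 alternatives, in primed ESCs (35 and 35).

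The 3 subunits of NAD-dependent isocitrate dehydrogenase did not move as one. Idh3g, the gamma subunit, stood at 96.5 and 94.6 TPM in naïve ESCs, 72.7 and 79.3 in DKO, 54.4 and 56.5 in GKO and 50.7 and 53.3 in the primed line. No Idh3g value of these 3 lines overlapped the naïve ones, as was so for most members in each line. The Idh3g difference was -0.77 ± 0.06, adjusted p = 1.3e-05 in GKO and -0.87 ± 0.06, adjusted p = 6.1e-07 in primed ESCs. Idh3a, the catalytic alpha subunit, stayed within 56.6 to 68.3 TPM in every library but those of DKO (48.7 and 52.3), and Idh3b within 53.1 to 64.5 TPM in all 10. Neither was called in GKO or in primed ESCs.

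The 2-oxoglutarate dehydrogenase subunits Ogdh (E1) and Dlst (E2) both rose in primed ESCs and diverged in GKO. Ogdh stood at 45 and 44.6 TPM in naïve ESCs, 70.9 and 78.9 in primed ESCs and 36.3 and 35 in GKO. Dlst stood at 43 and 42.9, 65.7 and 68.7 and 59.8 and 56.6 TPM in that order, and at 50.9 and 50.9 in AKO. The primed difference was 0.73 ± 0.06, adjusted p = 1.9e-06 for Ogdh and 0.63 ± 0.04, adjusted p = 1.1e-06 for Dlst, and in GKO the values were -0.32 ± 0.06, adjusted p = 0.0013 and 0.43 ± 0.04, adjusted p = 8.0e-05.

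Succinyl-CoA ligase pairs the alpha subunit Suclg1 with an ATP-forming (Sucla2) or a GTP-forming (Suclg2) beta subunit. Sucla2 stood at 26.6 and 28 TPM in naïve ESCs, 41.1 and 40.4 in DKO, 47.2 and 45.4 in GKO and 31.5 and 32.4 in the primed line. Suclg2 stood at 30.4 and 28.6, 29.6 and 31.4, 35.6 and 36.4 and 53.2 and 51.1 TPM in that order. GKO and DKO thus gained Sucla2 and primed ESCs mainly Suclg2. Sucla2 made up 46.7% and 49.5% of beta subunit mRNA in naïve ESCs, 57.0% and 55.5% in GKO, 58.1% and 56.3% in DKO and 37.2% and 38.8% in primed ESCs. The Sucla2 difference was 0.74 ± 0.05, adjusted p = 6.9e-06 in GKO and 0.56 ± 0.05, adjusted p = 3.7e-05 in DKO, and that of Suclg2 in primed ESCs was 0.80 ± 0.05, adjusted p = 6.6e-07. Sucla2 is on chromosome 14 too, and after centring each chromosome its difference was 0.19 in GKO (adjusted p = 0.019) and 0.10 in DKO (adjusted p = 0.18). Suclg1 stood at 74.8 and 71 TPM in naïve ESCs and 49 and 47.4 in primed ESCs (-0.59 ± 0.05, adjusted p = 5.8e-06).

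Pcx fell most of the TCA-linked genes, in GKO and in primed ESCs alike. Pcx encodes pyruvate carboxylase, which refills the cycle with oxaloacetate. It stood at 30.5 and 32.7 TPM in naïve ESCs, 24.5 and 23 in AKO, 19.6 and 20 in DKO and 10.4 and 10.6 in GKO. Primed ESCs had 10.5 and 8.41 TPM. The libraries of the lines were ordered without overlap from naïve through AKO and DKO to GKO, and those of GKO and primed ESCs overlapped. The difference was -1.51 ± 0.09, adjusted p = 5.1e-06 in GKO, -0.64 ± 0.09, adjusted p = 5.0e-04 in DKO and -1.64 ± 0.09, adjusted p = 2.1e-07 in primed ESCs. Pcx and Pgam1 lie on chromosome 19, whose 394 tested genes had a median difference of -0.40 in GKO, beside -0.003 for all other genes. After centring each chromosome the GKO difference was -1.09 for Pcx (adjusted p = 2.6e-05) and -0.32 for Pgam1 (adjusted p = 0.0043). Pck2, the mitochondrial PEP carboxykinase that withdraws oxaloacetate, stood at 10.4 and 9.67 TPM in naïve ESCs and 16.9 and 27.6 in primed ESCs (1.03 ± 0.18, adjusted p = 4.8e-04). The primed libraries differed in Pck2 by 0.681 on the log2 scale, the widest spread of any member in a line, and after centring each chromosome (14) the difference was 0.39 (adjusted p = 0.069).

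Of the cytosolic and NADP-linked enzymes, the malic enzymes, which make NADPH or NADH from malate, were both lower in DKO and in primed ESCs, to unequal extents. Me1, the cytosolic form, stood at 39 and 39.2 TPM in naïve ESCs, 36.9 and 37.1 in AKO, 19.4 and 19.7 in DKO, 27 and 26.9 in GKO and 27 and 26.9 in the primed line. Me2, a mitochondrial form, stood at 48.8 and 47.3, 48.5 and 46.3, 39.3 and 37.5, 45.9 and 46.1 and 25 and 24.8 TPM in the same order. Me1 was lowest in DKO and Me2 in primed ESCs, in each case without overlap with any other line. The Me1 difference was -0.97 ± 0.04, adjusted p = 1.1e-06 in DKO, -0.52 ± 0.04, adjusted p = 1.9e-05 in GKO and -0.52 ± 0.04, adjusted p = 2.2e-06 in primed ESCs, and the Me2 difference was -0.32 ± 0.05, adjusted p = 5.9e-04 in DKO and -0.92 ± 0.05, adjusted p = 1.1e-07 in primed ESCs. Aco1, the cytosolic aconitase, stood at 20.3 and 20.1 TPM in naïve ESCs and 34.6 and 29.3 in primed ESCs (0.63 ± 0.08, adjusted p = 4.3e-05). Idh1 (cytosolic, NADP-linked) was called in opposite directions, at 63.2 and 66.1 TPM in naïve ESCs, 87.8 and 80.8 in primed ESCs and 54.1 and 53.1 in GKO. Mdh1 was called in primed ESCs alone, at 87.2 and 87.6 TPM in naïve and 113 and 115 in primed libraries, and after chromosome centring its difference was 0.06 (adjusted p = 0.42). Idh2 stood at 59.9 and 60.7 TPM in naïve ESCs and 39.8 and 57.1 in primed ESCs, and its primed call was lost in 8 of 13 alternatives.

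Direct comparison of GKO with DKO tested whether members differed between Gys1 loss with and without AMPK. In GKO against DKO 32 members were called, 12 higher and 20 lower, where 43.5% of all genes were called (21.2% higher and 22.4% lower). Without Fbp2 there were 31. With a log2 difference of at least 0.5, 10 were called, Fbp2 among them, beside 15.1% of all genes. Among the 14 genes of the main glycolytic steps 9 were lower in GKO and 1, Pgk1, was higher, although Pgk1 was at -0.01 after chromosome centring. Of the 9, the call was lost in 8 of 13 alternatives for Gpi1, in 2 for Gapdh and in 1 for Pkm. Those lower by at least 0.5 were Aldoc (-0.86 ± 0.13, adjusted p = 7.3e-04), Tpi1 (-0.83 ± 0.13, adjusted p = 0.0013), Pfkm and Eno1. Pcx was lower in GKO than in DKO (-0.86 ± 0.09, adjusted p = 1.2e-04), as was Rpe (-0.71 ± 0.05, adjusted p = 2.1e-05). Higher in GKO were Pfkfb1 (0.87 ± 0.10, adjusted p = 2.1e-04), Bpgm (0.76 ± 0.09, adjusted p = 3.1e-04) and G6pc3 (0.67 ± 0.08, adjusted p = 2.2e-04).

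The interaction compared GKO minus naïve with DKO minus AKO, that is, lines with and without the Gys1 knockout, beside wild-type and beside AMPK KO cells. It called 24 members, 11 above 0 and 13 below 0, where 25.8% of all genes were called (12.8% above and 13.1% below). Without Fbp2 there were 23, with 12 below 0. With a value of at least 0.5 in size 12 were called, Fbp2 among them, beside 14.1% of all genes. Pcx had the largest value (-1.26 ± 0.13, adjusted p = 3.0e-04). Its TPM went from 30.5 and 32.7 in naïve ESCs to 10.4 and 10.6 in GKO, and from 24.5 and 23 in AKO to 19.6 and 20 in DKO. Aldoc (-1.06 ± 0.18, adjusted p = 0.0033), Eno1 (-0.76 ± 0.07, adjusted p = 2.6e-04) and Pfkm (-0.86 ± 0.08, adjusted p = 2.0e-04) had values below 0, and G6pc3 (0.98 ± 0.11, adjusted p = 5.2e-04) and Pfkfb1 (0.92 ± 0.14, adjusted p = 0.0022) values above 0. Rpe (-0.75 ± 0.07, adjusted p = 2.8e-04) lay below 0 and Bpgm (0.71 ± 0.13, adjusted p = 0.0056) above. Of the 23 members, the larger of the 2 differences was GKO minus naïve for 13, among them Pcx, Eno1 and Pfkfb1, and DKO minus AKO for 10, among them Pfkm, Aldoc, G6pc3, Rpe and Bpgm. Without the first GKO library fewer members were called, and the share of all genes called was not counted. The sources used here do not say from which line the J1 DKO was made. Each genotype is 1 line, so a line's own history and its genotype cannot be told apart in these values.

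**Figure D5:**
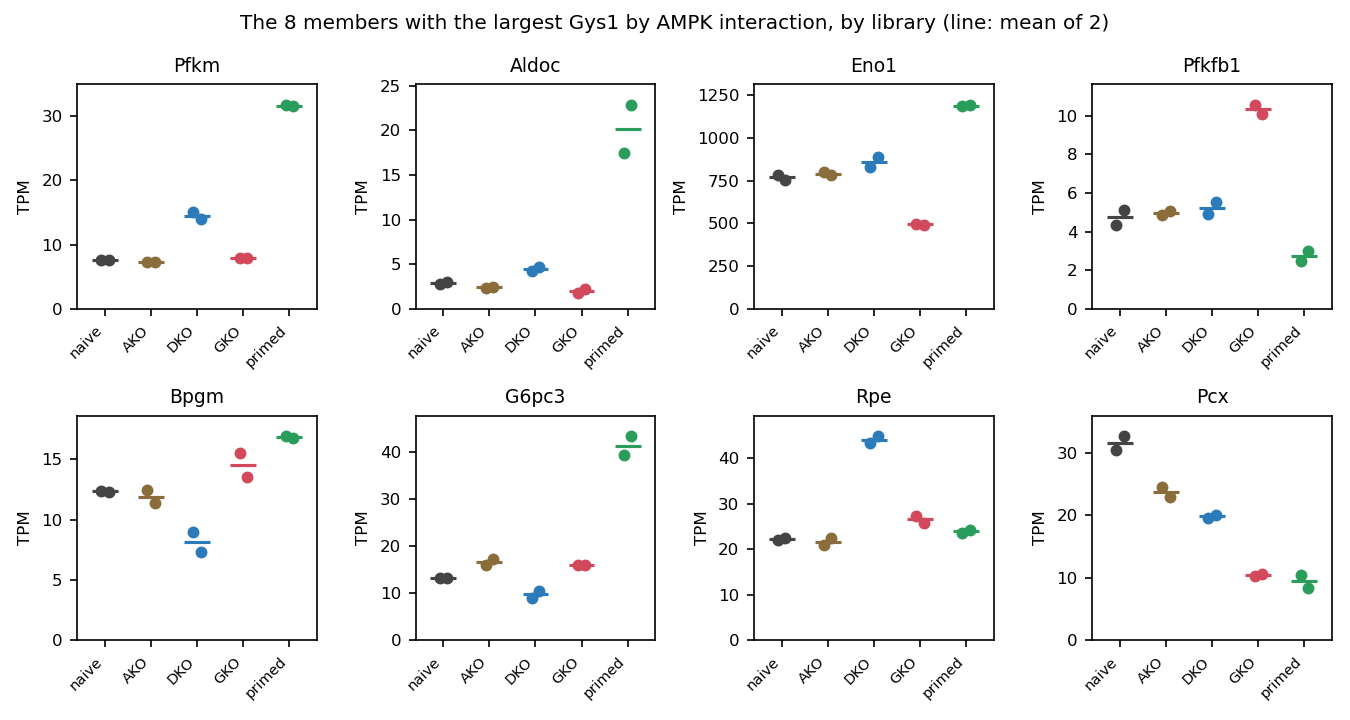
TPM in each library of the 8 members with the largest interaction of Gys1 and AMPK loss among those with a mean of at least 1 TPM in naïve ESCs. Points are libraries and lines are means of 2. Pcx steps down from naïve ESCs to GKO, Pfkfb1 is high in GKO alone, and Rpe and Pfkm are higher in DKO than in naïve ESCs, AKO and GKO.

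Another 25 genes of the same pathways, such as the hexokinases, succinate dehydrogenase and pyruvate dehydrogenase, were listed for context, and 17 of them were tested. In primed ESCs 1 was higher and 13 were lower, 82.4% in all beside 80% of all tested genes. In GKO 6 were higher and 7 lower (76.5% beside 51.7%) and in DKO 3 and 7 (58.8% beside 46%). In AKO 0 were called by limma, with 2 at an unadjusted p under 0.05. Hk2, the most abundant hexokinase here, stood at 99.998 and 100.108 TPM in naïve ESCs and 45.3 and 39.2 in primed ESCs (-1.23 ± 0.07, adjusted p = 1.8e-07). Pdha1, the E1 alpha subunit of pyruvate dehydrogenase, stood at 162 and 162 TPM in naïve ESCs, 145 and 146 in DKO, 99.3 and 98.7 in GKO and 69.2 and 73.3 in the primed line, with differences of -0.71 ± 0.04, adjusted p = 4.6e-06 in GKO and -1.17 ± 0.04, adjusted p = 1.1e-08 in primed ESCs. H6pd, the microsomal counterpart of G6pdx, was lower in primed ESCs (-1.09 ± 0.06, adjusted p = 3.8e-07). Hk1 rose in GKO, from 9.67 and 10.6 to 17.6 and 18.8 TPM (0.78 ± 0.14, adjusted p = 0.0015). The 8 untested genes, among them G6pc and Pck1 of liver gluconeogenesis, did not exceed 1.09 TPM in any library.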

How the data were processed

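Poly(A) RNA of 10 mouse ESC libraries (5 lines, 2 libraries a line) was sequenced in pairs of 75 bases with a stranded kit, per the labels. The methods name another kit, read length and sequencer than the labels do. The authors deposited TPM per gene for protein-coding genes, estimated with RSEM 1.3.3 after Trim Galore 0.6.6 and STAR 2.7.9a against GRCm38, per the submitters' processing notes, while the methods name another STAR version and build. RSEM divides reads between similar genes by estimate, and depth is not given in the sources used here. No counts were used here.

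Lines were compared in 1 fit of 5 means with limma 3.58.1 (R 4.3.3) on log2(TPM + 1), so differences of low genes are understated. A gene entered if 2 or more libraries held 1 TPM or more (12060 genes). An intensity trend was used, and p-values were adjusted by Benjamini-Hochberg separately for each comparison. The steps were tested on simulated data. Members with a mean of at least 1 TPM and a called log2 difference of at least 0.5 are given by library. The members and lists were chosen with earlier results of these data known. Replicate numbers in the titles did not pair the libraries. Promoters came from RefSeq.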

Additional observations from a re-analysis of the deposited data

Results flagged for a closer look

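For 23 members the GKO minus naïve difference was not the same as the DKO minus AKO difference. These were called by the interaction in the limma fit at an adjusted p under 0.05, where 25.8% of all tested genes were called. Each genotype is 1 line, and the line from which DKO was made is not given, so genotype and a line's own history cannot be told apart. The 11 values above 0, that is, a GKO minus naïve difference above the DKO minus AKO difference on the log2 scale, were those of G6pc3 (0.98), Pfkfb1 (0.92), Bpgm (0.71), Dlst (0.65), Pgk1 (0.41), Me1 (0.37), Suclg2 (0.34), Pgls (0.30), Idh3a (0.27), Me2 (0.24) and Sucla2 (0.22). The 12 values below 0 were those of Pcx (-1.26), Aldoc (-1.06), Pfkm (-0.86), Eno1 (-0.76), Rpe (-0.75), Pfkfb2 (-0.66), Idh1 (-0.51), Aldoa (-0.39), Pgam1 (-0.34), Ogdh (-0.34), Idh3g (-0.33) and Idh3b (-0.27). Of these calls 11 were kept under all alternatives, and the value of Pgk1 went as low as 0.08. Fbp2, which was tested only because of its level in DKO, is left out. Lines of 2 libraries are too small for a test of outlying libraries.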

How the results depend on the processing

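Of 157 calls of members over the comparisons, 102 kept their direction and threshold under all alternatives, 30 of 41 in primed ESCs, 25 of 32 in GKO, 15 of 28 in DKO, 20 of 32 in GKO against DKO and 12 of 24 for the interaction. Fbp2, left out as an alternative chosen after seeing the data, changed these to 30 of 40, 24 of 31, 14 of 27, 19 of 31 and 11 of 23. Requiring a log2 difference of at least 0.5 in addition left 28 members in primed ESCs, 15 in GKO, 9 in DKO, 10 in GKO against DKO and 12 for the interaction, beside 6457, 2401, 1941, 1819 and 1698 of 12060 genes. The 24 interaction calls at an adjusted p under 0.05 alone became fewer whichever 1 library was left out. The share of all genes called in such fits was not counted. Direction was reversed under quantile normalization in primed ESCs for Cs (0.0896) and Pgd (0.0141), and under chromosome centring for Sucla2 in primed ESCs (-0.42), Tkt in GKO (-0.37) and DKO (-0.30) and Pgk1 in GKO against DKO (-0.0102). The cause was not tested. Rescaled to the TPM of listed genes, the summed ratio to naïve ESCs was 1.099 in primed ESCs and 0.814 in GKO for glycolysis, 1.33, 1.05 and 1.05 in primed ESCs, GKO and DKO for the pentose phosphate pathway, and 1.02, 0.923, 0.928 and 0.979 in primed ESCs, GKO, DKO and AKO for the TCA cycle. With median-ratio scaling it was 1.01 for glycolysis and 0.938 for the TCA cycle in primed ESCs, and 0.862 for the TCA cycle in GKO. With a replicate block the counts of called members were 39 in primed ESCs, 33 in GKO, 25 in DKO, 0 in AKO, 31 in GKO against DKO and 22 for the interaction. Beside these, 79.4%, 50.1%, 44.6%, 0.0663%, 41.7% and 23.8% of all tested genes were called, in that order. Deviations of same-numbered libraries correlated between -0.128 and 0.078. TPM without read depth give no counting error.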
